A study of Danio rerio with 4 samples.

Results

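The regions described here are 1072 chromatin accessibility peaks of zebrafish heart nonmyocyte (nonCM) nuclei that were open more often in nuclei in which 1 peak on chromosome 18 was open. That peak, chr18:20141691-20142515, is called the anchor, and the 1072 peaks are called its co-open peaks. They were chosen by their measured values, out of 50394 peaks on 25 chromosomes. A peak had to be open in 20 or more nuclei, lie more than 100 kb from the anchor, and have a rate at least 3 times as high in nuclei with the anchor open as in nuclei with it closed. The rate is the number of open calls per 1000000 open calls over all peaks (CPM), and 10 CPM was added to both rates before their ratio was taken. Of 35014 peaks open in 20 or more nuclei, 18 were the anchor or lay within 100 kb of it, so that 34996 peaks could qualify and 3.06% of them did.

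The nuclei came from nonCMs isolated from hearts of wild type zebrafish at 0, 2, 7 and 14 days after resection of the ventricular apex (dpa), with 1 library per time point, and were profiled by scATAC-seq. The paper describes the ventricles as uninjured and regenerating, so the pooled nuclei include nuclei of uninjured hearts. In this assay a transposase inserts adapters into the accessible DNA of nuclei, which are then partitioned into droplets, where a barcode is added that assigns each fragment to its nucleus. The deposited matrix holds 2737 nuclei, and each of its values is 1 (open) or 0 (not open). A 0 means that no open call was made, which can also be a missed call, and closed is used below in this sense. Its row names do not tie a nucleus to a time point, so all nuclei were treated as 1 pooled sample, no time points were compared, and nothing below is a test. Intervals are exact 95% Clopper-Pearson intervals for shares, or binomial intervals for medians, and cover counting error only.

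An accessible region is a stretch of DNA that nucleosomes leave exposed, such as a promoter or an enhancer, and the set of enhancers that is open differs between cell types. In the zebrafish heart the nonCMs include epicardial cells and fibroblasts (Epi/FB), endocardial and endothelial cells, macrophages and other blood cells, and several of these become activated after injury. A peak that is open in a subset of nuclei therefore tends to be accompanied by other peaks of the same cells, on any chromosome. No genome of the files' build was used here, so no sequence of the peaks is shown.

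Gene symbols are given only as names that the study itself attached to a region. They come from a list of Epi/FB-differential accessible regions that overlap regeneration enhancers. That list was chosen on these same nuclei and was at hand only in part. A symbol is thus not independent evidence of the cell type of a region, the lack of one says nothing, and a region may act on another gene than the one named. Marker genes of the cell types could not be checked across the peaks in the absence of gene positions in the files' build, and the co-open peaks are given no cell type name.

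The anchor is 824 bp wide and carries the name of tle3a, a gene of the Groucho family of transcriptional corepressors. It was open in 141 nuclei, or 5.15% (4.35% to 6.05%) of all nuclei, and 7058 other peaks were open in more. Nuclei with the anchor open had more open peaks, with a median of 1649 (quartiles 1204 and 2507, range 363 to 10959) against 1128.5 (quartiles 833 and 1640.5, range 77 to 9025) in the 2596 nuclei with it closed. Since a deeper nucleus has a greater chance of a call at any given peak, the rates were taken relative to all calls. A single open call was worth 3.52 CPM over the nuclei with the anchor open and 0.289 CPM over the others.

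The co-open peaks had ratios of up to 6.96, with a median of 3.49 and quartiles of 3.20 and 3.89. Across all peaks that could qualify, the median ratio was 0.889 with quartiles of 0.645 and 1.33. These ratios were what the peaks were selected on and are given as a description. The majority of the co-open peaks, 557, lay under 3.5, while 225 reached 4 and 27 reached 5. In the opposite direction, 550 peaks (1.57%) had a ratio of 0.333 or less. The median co-open peak was open in 17 of the 141 nuclei with the anchor open (range 9 to 60) and in 32 of the 2596 with it closed (range 8 to 209), which are median rates of 59.8 and 9.25 CPM. Thus no co-open peak was open in every nucleus with the anchor open, and every co-open peak was also open in some nuclei with it closed. At 47 co-open peaks, at least as many nuclei were open with the anchor open as with it closed, although the latter were far more numerous.

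**Figure D1:**
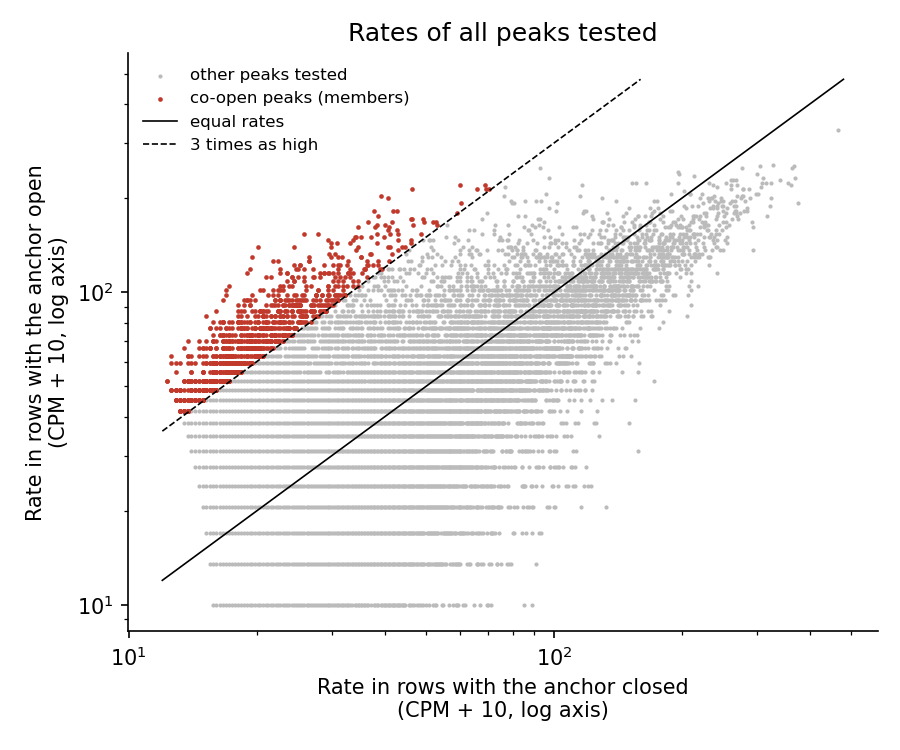
Rate of every peak that could qualify in nuclei with the anchor open (vertical axis) against nuclei with it closed (horizontal axis), both as CPM plus 10 on log axes, with 1 point per peak. The 1072 co-open peaks (red) lie on or above the dashed line of a ratio of 3, by the choice of the peaks, and most other peaks (grey) lie around or below the solid line of equal rates, with a median ratio of 0.889.

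The highest ratio, 6.96, was found at chr15:24485730-24486300, which carries the name of dhrs13b.1, a short-chain dehydrogenase/reductase gene. It was open in 37 of 141 nuclei with the anchor open (26.2%, 19.2% to 34.3%) and in 35 of 2596 with it closed (1.35%, 0.941% to 1.87%). The rows of the matrix fall into 4 runs, in each of which the barcodes are in alphabetical order. No label ties a run to a time point, so the runs are parts of the matrix and not replicates. In runs 1 to 4 this peak was open in 1 of 20, 5 of 21, 24 of 61 and 7 of 39 nuclei with the anchor open, against 3 of 410, 11 of 694, 10 of 687 and 11 of 805 with it closed. The share was higher with the anchor open in each of the 4 runs, although run 1 rests on a single nucleus. This peak and the others given by run below were picked on all 4 runs together. Their values by run describe where the calls lie and are no separate evidence. Not every co-open peak was higher in each run. In run 2 the peak named for twist1b, described below, was open in 0 of 21 against 13 of 694 nuclei.

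The next highest, chr17:49890744-49891220, carries the name of cox7a2a, a subunit gene of cytochrome c oxidase. It was open in 34 nuclei with the anchor open and 33 with it closed, at a ratio of 6.63. In run 2 only 1 of 21 and 3 of 694 nuclei were open there, so that most of its calls came from the other runs. A peak of the klf7a region, which is named for a Krüppel-like transcription factor, chr1:6484259-6484709, was open in 27 and 25 nuclei, at a ratio of 6.09. By run, it was open in 4 of 20, 2 of 21, 17 of 61 and 4 of 39 nuclei with the anchor open, against 3 of 410, 9 of 694, 9 of 687 and 4 of 805 with it closed, again higher with the anchor open in each run. The peak named for fgf12a, an intracellular member of the fibroblast growth factor family that binds sodium channels, lies at chr2:5649927-5650472 and had a ratio of 6.09 (30 and 31 nuclei).

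Other peaks among the 10 highest ratios carried the names of genes with unlike roles. The peak at chr10:43213198-43213653 is named for vcanb, which encodes a versican, a proteoglycan of the extracellular matrix, and it was open in 26 nuclei (18.4%, 12.4% to 25.8%) against 24 (0.924%, 0.593% to 1.37%), at a ratio of 5.99. The peak named for prkn, a ubiquitin ligase gene, at chr13:3637088-3637475 had a ratio of 5.78, and the one named for cfl1, whose product cofilin severs actin filaments, at chr14:30829227-30829752 had a ratio of 5.73. The remaining 3, which carried no listed name, were chr10:4124790-4125383 (6.18), chr9:23909634-23910312 (5.95) and chr12:35858039-35858533 (5.77). Each of these 10 peaks was open in 41 or fewer nuclei with the anchor open, so the ratios at the top of the list rest on few calls.

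The 10 co-open peaks open in most nuclei with the anchor open had ratios of 3.04 to 5.19. These lie below the 10 peaks above, which were picked for the highest ratios. Over all co-open peaks, the median ratio was 3.34 at 20 to 34 open nuclei and 3.59 at 100 to 199. It was 3.18 for the 7 peaks open in 200 or more. The peak at chr12:42472311-42473518, named for ebf3a, a transcription factor gene of the early B-cell factor family, was open in 60 of 141 nuclei with the anchor open (42.6%, 34.3% to 51.2%) and in 203 with it closed (7.82%, 6.82% to 8.92%), at a ratio of 3.22. By run it was open in 8 of 20, 7 of 21, 33 of 61 and 12 of 39 nuclei with the anchor open, against 48 of 410, 62 of 694, 45 of 687 and 48 of 805 with it closed. The peak chr23:31177575-31178354 was open in as many nuclei with the anchor open, 60, and in 174 with it closed, at a ratio of 3.66. In run 1 it was open in 4 of 20 against 14 of 410 nuclei, and in run 3 in 33 of 61 against 52 of 687. The share of open nuclei at both peaks was higher with the anchor open in each of the 4 runs, on which these peaks were also picked.

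Among these widely open peaks, 4 combined many open nuclei with a ratio above 4. The peak named for zfp36l1b, whose family binds AU-rich messenger RNAs and promotes their decay, chr20:9628774-9630033, was open in 55 nuclei (39.0%, 30.9% to 47.6%) against 101 (3.89%, 3.18% to 4.71%), at a ratio of 5.19. The peak chr2:9931614-9932410 was open in 54 against 106 nuclei, at a ratio of 4.92. The peak chr23:31564953-31565336 was open in 58 nuclei (41.1%, 32.9% to 49.7%) against 126 (4.85%, 4.06% to 5.75%), at a ratio of 4.61. A peak named for wnt8a, a Wnt ligand gene, chr14:34457896-34458772, was open in 49 nuclei (34.8%, 26.9% to 43.2%) against 110 (4.24%), at a ratio of 4.36. The remaining 4 of the 10 most open peaks, at chr4:16406681-16407713, chr6:24432725-24433486, chr11:25245162-25246531 and chr11:18922893-18923685, had ratios of 3.04 to 3.25.

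The limit of 3 falls in a continuous range of ratios. Just inside it lay chr16:19714348-19715313 (20 against 58 nuclei), named for twist1b, a basic helix-loop-helix transcription factor gene of mesenchymal cells, with chr3:20364863-20365420 (21 against 62) and chr20:36470625-36471016 (22 against 66). Just outside it lay chr1:13887159-13887648, named for the ETS factor gene elf2b, and chr14:27297581-27297914, which were both open in 19 against 54 nuclei, and chr6:53349883-53350719 (36 against 123). At each of these 6 peaks, 1 nucleus more or fewer with the anchor open would move the peak across the limit.

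Several genes of the marker and pathway lists had regions on the study's list. A klf1 region, named for an erythroid Krüppel-like factor, at chr6:8083201-8083706 was a co-open peak, with 17 against 23 open nuclei and a ratio of 4.19. The other such regions stayed under a ratio of 3. A region of rspo1, which encodes a secreted Wnt enhancer, at chr16:33776917-33777285 had a ratio of 2.79 (9 against 17 nuclei), and a second rspo1 region at chr16:33745417-33745787 had 1.35 (3 against 18). The region of dcn, a gene for the matrix proteoglycan decorin, had a ratio of 2.42 (8 against 20), that of the Hippo pathway factor gene tead1a 2.36 (13 against 47), that of the myeloid factor gene irf8 2.28 (13 against 50), that of tead3b 1.28 (7 against 59), that of aldh1a2, a retinoic acid synthesis gene, 1.21 (3 against 24), and that of stat1a 0.784 (1 against 25). The listed regions of wt1b, twist1a, pdgfra, klf2a and nfe2 were open in fewer than 20 nuclei each and could not qualify. Their ratios were 2.41 for wt1b, 1.29 for twist1a, 1.12 for pdgfra, 1.40 to 1.96 for the klf2a regions and 1.83 for nfe2. With as few as 1 to 13 open nuclei on the anchor-open side, these values separate little from one another.

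Co-open peaks lay on all 25 chromosomes, with 27 to 66 on each. Their share of the peaks that could qualify ran from 2.24% on chromosome 14 to 4.24% on chromosome 23, where 66 of 1558 were co-open. On chromosome 18 itself, outside the 100 kb around the anchor, 43 peaks (3.25%) were co-open, close to the 3.06% over all chromosomes.

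On a finer scale they were clustered. The median gap between consecutive co-open peaks was 610.685 kb, but 344 co-open peaks (32.1%) had another within 50 kb. Neighbours were counted around the co-open peaks, so a peak near several of them can enter more than once. The counts are thus of neighbours and not of distinct peaks. Of the neighbours within 10 kb of a co-open peak, 17.6% were co-open themselves (172 of 979). The share was 9.31% (338 of 3631) at 10 to 50 kb, 4.77% (192 of 4028) at 50 to 100 kb, 3.37% (880 of 26149) at 100 to 500 kb and 2.97% (918 of 30885) at 500 to 1000 kb. It fell with distance, came close to the 3.06% of all peaks at 100 to 500 kb and lay below it at 500 to 1000 kb. The median ratio of neighbours fell in the same order, from 1.55 within 10 kb to 0.887 at 500 to 1000 kb.

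**Figure D2:**
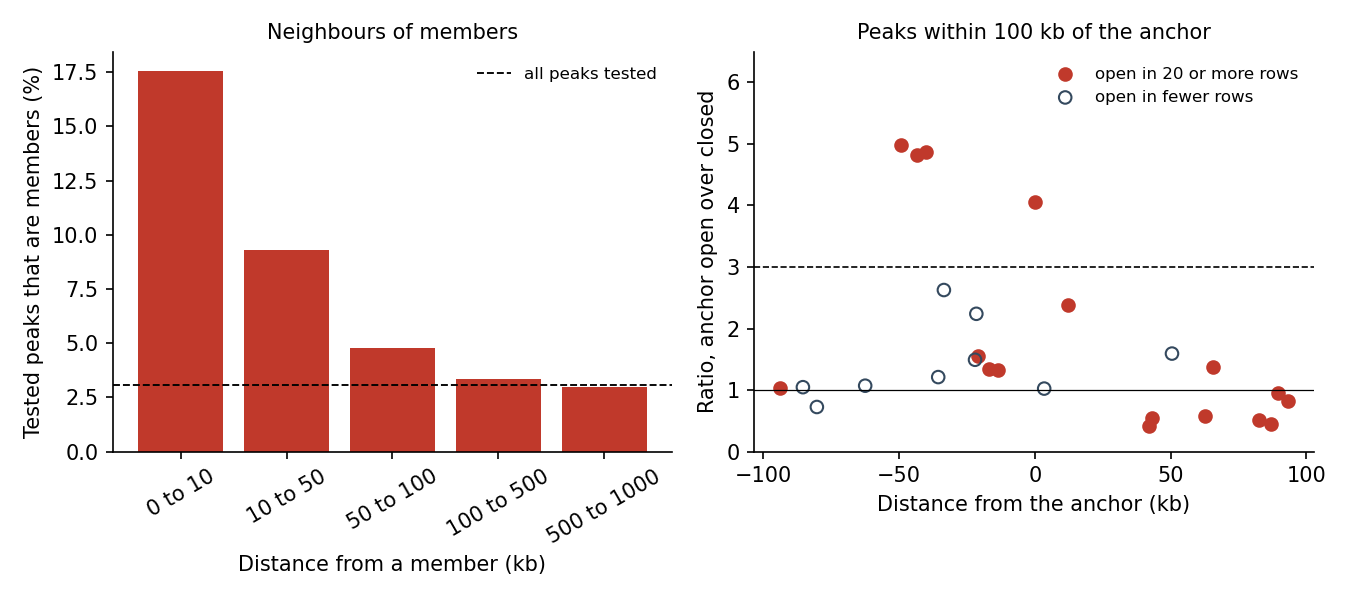
Left, percentage of qualifying neighbours that are themselves co-open, by distance from a co-open peak in kb, with the 3.06% of all peaks as a dashed line. A peak near several co-open peaks can be counted more than once. The share falls from 17.6% within 10 kb to 2.97% at 500 to 1000 kb. Right, ratio of each peak within 100 kb of the anchor against its distance from the anchor in kb, filled where the peak is open in 20 or more nuclei; 4 filled peaks lie above the dashed line of 3, and those more than 40 kb to the right lie mostly under the solid line of 1.

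The densest stretch was chr23:31523464-31565336, where 6 of 9 qualifying peaks within 41.9 kb were co-open, at ratios of 3.10 to 4.61. At least 1 of the 6 was open in 102 of 141 nuclei with the anchor open (72.3%, 64.2% to 79.5%) and in 359 of 2596 with it closed (13.8%, 12.5% to 15.2%). At least 2 of the 6 were open in 52 and 89 nuclei. A region within 50 kb of this stretch is named for eya4, a gene for a transcriptional coactivator and phosphatase. The RefSeq annotation of assembly GRCz12tu, which is not the files' build, was used only for gene order. In it the protein-coding genes next to tle3a, whose name the anchor carries, are uacaa before it and kif23 after it. Those next to eya4 are rps12 before it and tcf21 after it. The tcf21 gene encodes a basic helix-loop-helix factor used as a pan-marker of epicardial cells and fibroblasts. This gene order gives the co-open peaks no cell type name. Of the listed regions of marker and pathway genes described above, only that of klf1 was co-open. The positions of rps12 and tcf21 relative to these 6 peaks in the files' build were not determined. Nor was the side of eya4 on which the peaks lie. The 6 peaks were not open alike: chr23:31551327-31551997 was open in 44 against 149 nuclei at a ratio of 3.10, while chr23:31562476-31562711 was open in 17 against 27 at a ratio of 3.92. In runs 1 to 4 the most open of them, chr23:31564953-31565336, was open in 10 of 20, 5 of 21, 32 of 61 and 11 of 39 nuclei with the anchor open, against 32 of 410, 30 of 694, 31 of 687 and 33 of 805 with it closed.

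A second stretch, chr5:46504430-46543543, held 4 qualifying peaks in 39.1 kb, and all 4 were co-open, at ratios of 3.56 to 4.81. At least 1 was open in 69 nuclei with the anchor open (48.9%, 40.4% to 57.5%) and in 152 with it closed (5.86%, 4.98% to 6.83%). The highest ratio of the stretch was at chr5:46543082-46543543, with 31 against 51 open nuclei. No region near this stretch carried a listed name.

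The last of the 3 stretches, chr16:4383571-4427646, held 4 co-open peaks among 6 within 44.1 kb, at ratios of 3.24 to 5.08. At least 1 was open in 80 nuclei with the anchor open (56.7%, 48.1% to 65.0%) and in 203 with it closed (7.82%, 6.82% to 8.92%). The most open of the 4, chr16:4404240-4404779, is named for vegfaa, a gene for a vascular endothelial growth factor ligand, and was open in 43 against 85 nuclei at a ratio of 4.66. By run it was open in 4 of 20, 9 of 21, 22 of 61 and 8 of 39 nuclei with the anchor open, against 8 of 410, 27 of 694, 26 of 687 and 24 of 805 with it closed. The peak chr16:4427154-4427646, named for ttc29, a gene of the ciliary axoneme, had the highest ratio of the stretch, with 30 against 44 nuclei.

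The 100 kb on either side of the anchor were left out of the choice and held 26 other peaks, of which 17 were open in 20 or more nuclei. Of these 17, 4 (23.5%) had a ratio of at least 3, against 3.06% of the peaks that could qualify. A group of 3 lay 49.3, 43.5 and 39.9 kb to the left of the anchor, with ratios of 4.99, 4.82 and 4.87 and 22, 20 and 25 open nuclei with the anchor open. The other, 0.227 kb to the right, had a ratio of 4.05 with 13 nuclei open on each side. Farther right, the pattern was the opposite. The peak 42.2 kb away was open in 10 nuclei with the anchor open and 343 with it closed (ratio 0.414), and the peak 82.5 kb away, open in 45 and 1083 nuclei, had a ratio of 0.521. High ratios near the anchor thus lay within 50 kb to its left or directly beside it.

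Co-open peaks were wider than peaks in general. Their median width was 443 bp (quartiles 375 and 540) against 388 bp (302 and 503) for all qualifying peaks, and 1 of them (0.0933%) had the smallest width of 200 bp against 1.56% of all. Width goes with the number of open nuclei, and within classes of that number the order of the medians was the same. The medians were 355 against 292 bp for peaks open in 20 to 34 nuclei, 417 against 340 bp at 35 to 49, 490 against 405 bp at 50 to 99 and 598 against 487 bp at 100 to 199. The co-open peaks were open in a median of 49 nuclei (quartiles 35 and 72) against 57 (33 and 118). Of the 4506 peaks open in 200 or more nuclei, 7 (0.155%) were co-open, against 5.11% (290 of 5671) of those open in 35 to 49. The rule itself bears on this range, since it depends on the number of open nuclei and only 141 nuclei had the anchor open.

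The share of a nucleus's open calls that fell in the 1072 peaks, called the co-open share, separated most nuclei with the anchor open from most of the others. The median share was 8.14% (7.84% to 8.64%; quartiles 6.86% and 9.44%, range 0% to 12.9%) with the anchor open and 0.372% (0.353% to 0.390%; quartiles 0.185% and 0.790%, range 0% to 10.9%) with it closed. The peaks were chosen on this same contrast, so the gap is a description. As counts, the medians were 132 and 4 co-open peaks per nucleus. The counts were also taken at equal depth, for the peaks as chosen on all calls. Drawing the same number of calls from each nucleus keeps its co-open share on average. The gap at equal depth thus follows from the shares and is no check on depth. With every nucleus thinned to 500 open calls, which left out 4 nuclei with the anchor open and 127 with it closed, the medians were 41 (quartiles 32 and 48) and 2 (quartiles 1 and 4) co-open peaks. The list itself depended on depth: with the rule applied to the thinned nuclei, 617 peaks were chosen, of which 285 were among the 1072.

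**Figure D3:**
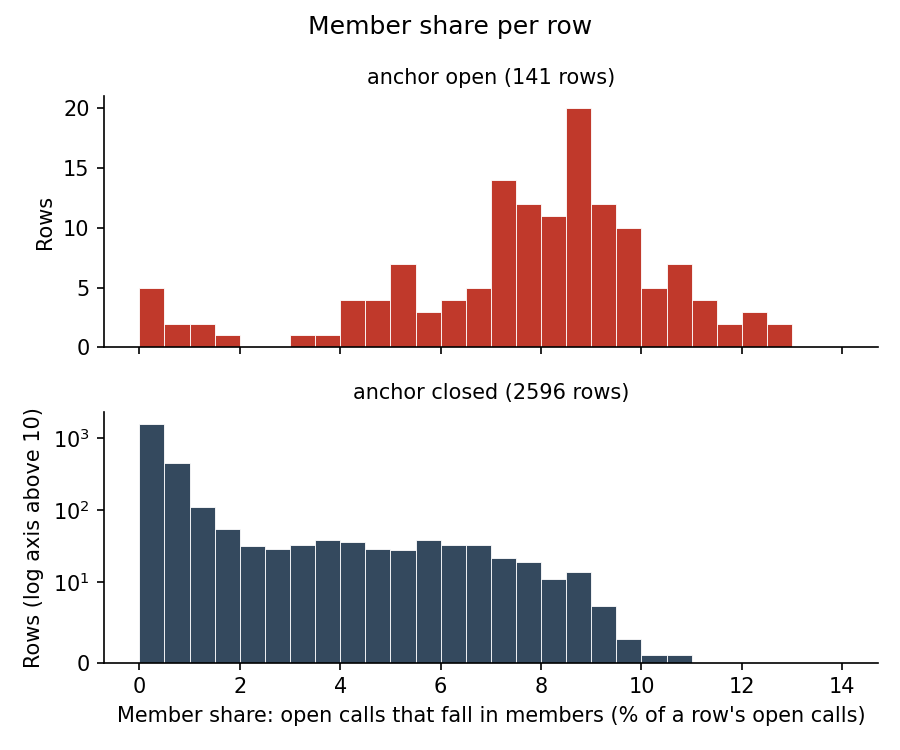
Number of nuclei by co-open share, the percentage of a nucleus's open calls that fall in the 1072 co-open peaks, for 141 nuclei with the anchor open (top) and 2596 with it closed (bottom, log axis above 10). Most nuclei with the anchor open lie around the median of 8.14%, most others lie under 1%, and a tail of nuclei with the anchor closed extends up to 10.9%.

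Neither group of nuclei was uniform. Of the nuclei with the anchor closed, 2024 (78.0%) had a co-open share under 1%, and 179 of them had no co-open peak open. However, 83 nuclei with the anchor closed reached the lower quartile of the nuclei with it open, and 33 reached their median. Conversely, 10 nuclei had the anchor open and a share under 2%. These 10 had 757 to 10959 open peaks, with a median of 1382.5, and they include the deepest nucleus of the matrix. A single open call at the anchor is thus neither needed for nor a guarantee of a high co-open share.

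In total, 404 nuclei had a co-open share of at least 4%, a limit set after the values were seen that marks a range of shares and not a cell type. The anchor was open in 129 of the 404 (31.9%, 27.4% to 36.7%). Among all nuclei the share with the anchor open was 0.345% (7 of 2031; 0.139% to 0.709%) at a co-open share under 1%, 1.80% (3 of 167) at 1 to 2%, 1.48% (2 of 135) at 2 to 4%, 12.1% (18 of 149; 7.32% to 18.4%) at 4 to 6%, and 43.5% (111 of 255; 37.4% to 49.9%) at 6% or more. The co-open peaks were chosen for a higher rate in nuclei with the anchor open, so the choice itself favours this rise. The rise and the 31.9% are thus descriptions. With peaks chosen without the run of the nucleus, as described below, the anchor was open in 0.303% under 1% and 36.0% at 6% or more. For the peaks chosen on all nuclei, the nuclei of the lowest and the highest range had median depths of 1104 and 1281 open peaks. Even in the highest range, more nuclei lacked an open call at the anchor than had one, and some of these may be missed calls. Of the 404 nuclei, those with the anchor open had a median of 1684 open peaks, against 1287 for those with it closed.

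**Figure D4:**
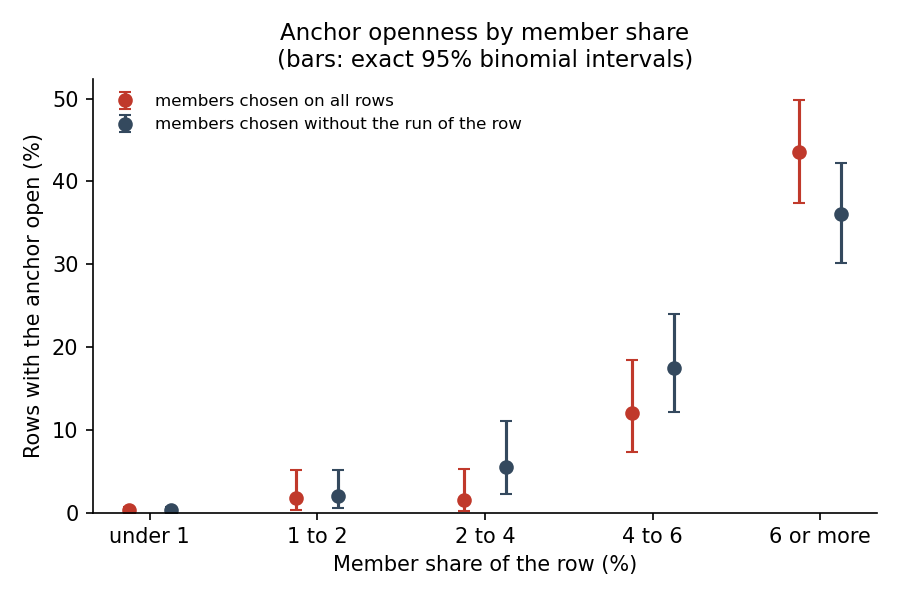
Percentage of nuclei with the anchor open by co-open share, with exact 95% binomial intervals, for peaks chosen on all nuclei (red) and for peaks chosen without the run of the nucleus (blue). With peaks chosen on all nuclei it is 0.345% under a share of 1% and 43.5% at 6% or more, and with peaks chosen without the run it is 0.303% and 36.0%. The red values are a description, since their peaks were chosen on the same nuclei.

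To measure the peaks in nuclei that the choice had not used, the rule was applied again without each run in turn, and the ratios of the chosen peaks were taken in the run left out. The number chosen was 1030 without run 1, 1127 without run 2, 997 without run 3 and 1032 without run 4, of which 908, 898, 624 and 856 were also among the 1072. Their median ratios in the run left out were 2.76, 2.63, 2.94 and 2.89, against 0.761, 0.716, 0.865 and 0.726 for all peaks that could have been chosen. In run 1, 46.5% of the chosen peaks again had a ratio of at least 3, against 7.00% of all peaks. In run 2 it was 42.0% against 5.48%, in run 3 47.2% against 3.71%, and in run 4 46.1% against 5.99%. The 4 lists overlap, so a total over them counts a peak once for each list it is in. In that total, 1899 of 4186 entries (45.4%) had a ratio of at least 3 and 3584 (85.6%) a ratio of at least 1. All peaks that could have been chosen, totalled in the same way, had 5.59% and 38.2%. The medians fell below the limit of 3 that the peaks had passed elsewhere, but in each run they lay well above those of all peaks.

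The number of nuclei limits this measure, since a run held 20, 21, 61 or 39 nuclei with the anchor open and 1 call was worth 30.6, 24.8, 6.09 or 21.1 CPM. For the same reason 271 of the peaks chosen without run 1, but 6 of those chosen without run 3, had no call in any nucleus with the anchor open in the run left out. The co-open share, which sums over all chosen peaks, was less limited. Its median in the run left out was 6.53%, 7.04%, 6.62% and 7.08% in nuclei with the anchor open against 0.523%, 0.489%, 0.421% and 0.404% with it closed. In runs 1 to 4, 19 of 20, 20 of 21, 58 of 61 and 38 of 39 nuclei with the anchor open lay above the upper quartile of those with it closed. With peaks chosen without the run of the nucleus, the anchor was open in 6 of 1982 nuclei (0.303%, 0.111% to 0.658%) with a co-open share under 1% and in 94 of 261 (36.0%, 30.2% to 42.2%) at 6% or more.

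**Figure D5:**
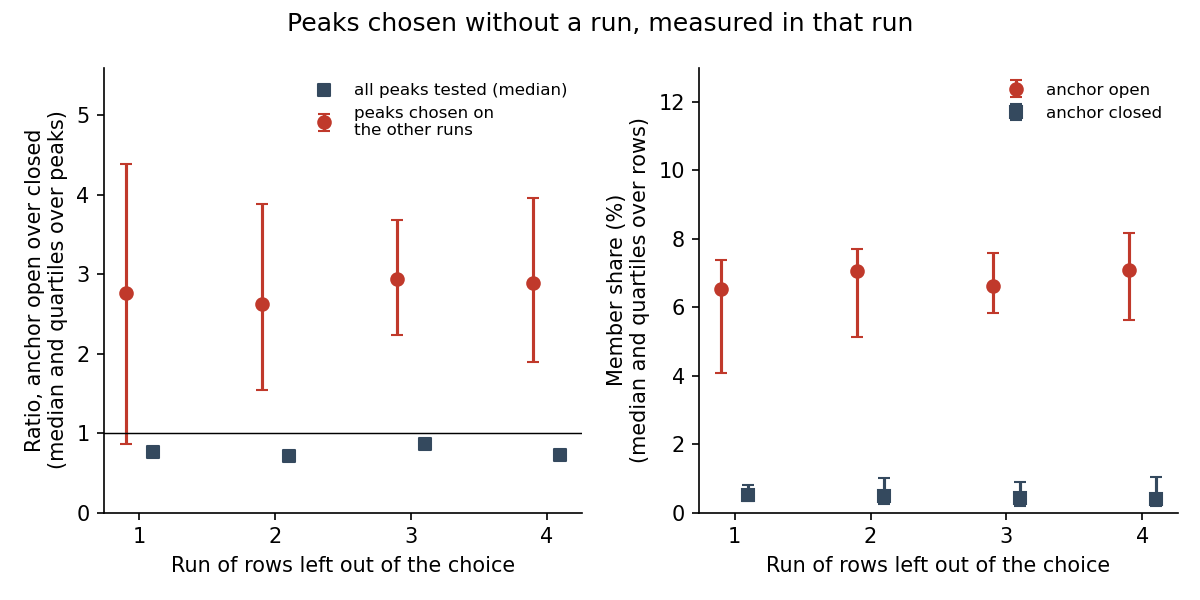
Peaks chosen without a run and measured in that run, for each of the 4 runs of rows. Left, the ratio (red, median and quartiles over the chosen peaks) with the median of all peaks (blue), where the chosen peaks lie at 2.63 to 2.94 and all peaks at 0.716 to 0.865. Right, the co-open share in percent (median and quartiles over nuclei), at 6.53% to 7.08% with the anchor open (red) and 0.404% to 0.523% with it closed (blue).

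The anchor itself was open unevenly over the runs, in 4.65% (2.86% to 7.09%), 2.94% (1.83% to 4.45%), 8.16% (6.30% to 10.4%) and 4.62% (3.31% to 6.26%) of their nuclei. Run 3 thus held 61 of the 141 nuclei with the anchor open, and its median depth in those nuclei was 2354 open peaks against 1623, 1732 and 1144 in runs 1, 2 and 4. Nuclei with a co-open share of at least 4% made up 11.6%, 12.2%, 17.1% and 16.5% of the 4 runs. Whether these differences go with time after injury cannot be told from the matrix.

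Co-open peaks were also open together in nuclei in which the anchor was closed. The rule fixes how often each peak was open over these 2596 nuclei, but not in which of them. Pairs of co-open peaks on different chromosomes were open in the same nucleus 1543755 times, whereas 445727 was the number given by nucleus depth and peak rate, a ratio of observed to expected of 3.46. For all other qualifying peaks the same ratio was 0.991. Those peaks hold most of the open calls of the nuclei, so their ratio lies near 1 by construction and is no baseline. For the co-open peaks it was 3.06, 3.41, 3.71 and 3.74 in runs 1 to 4 taken alone. The other peaks had 0.985 to 0.998 there, again near 1 by construction. Pairs of co-open peaks within 50 kb on the same chromosome had a ratio of 4.32 (1180 against 273), compared with 1.29 for other peaks at that distance. Between chromosomes the co-open peaks were thus open together more often than depth and peak rate give. Their ratio was already 3.46 there, against 0.991 for other peaks. The 4.32 against 1.29 within 50 kb is therefore not a measure of neighbourhood alone.

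The same was seen when the co-open peaks were divided by chromosome number, an arrangement chosen after the values were seen. The 588 co-open peaks on odd-numbered chromosomes and the 484 on even-numbered chromosomes share no sequence neighbourhood. Among the 2596 nuclei with the anchor closed, the shares of open calls in both sets had a Pearson correlation of 0.944 and a Spearman correlation of 0.652. These are descriptions across nuclei that share libraries and depth. In 42 nuclei with the anchor closed, the odd-chromosome share reached 4.45%, the median of the nuclei with the anchor open. Their even-chromosome share had a median of 3.52% (range 2.25% to 4.93%), far above the 0.167% of the other 2554. In the 71 nuclei with the anchor open that reached the same limit, the median was 4.09% and the lower quartile 3.63%. The 3.52% lay below both. With the sets exchanged, 39 nuclei reached the limit, with a median odd-chromosome share of 4.39% (range 1.92% to 6.23%) against 0.207% in the other 2557. In the other direction, 7 nuclei with the anchor open had an odd-chromosome share under 0.5%, and their median even-chromosome share was 0.132%, similar to the 0.120% of the 1973 nuclei with the anchor closed under the same limit.

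At the other anchors examined, the co-open peaks of the chromosome 18 anchor had lower median ratios than peaks in general. The rule was applied to chr20:6812318-6813046, open in 195 nuclei, and to chr14:31236882-31237431, open in 168. It chose 151 and 102 peaks (0.431% and 0.291% of those that could qualify), with median ratios of 3.36 and 3.15, against 1072 peaks at the chromosome 18 anchor, which was open in fewer nuclei. The median number of open peaks per nucleus was 1085 and 1707 at these anchors, against 1649 at the chromosome 18 anchor. The 3 comparisons share most of their nuclei with an anchor closed, so their values are set side by side only. The 1072 peaks had a median ratio of 0.584 at the chromosome 20 anchor and 0.613 at the chromosome 14 anchor, against 0.823 and 0.894 for all peaks that could qualify there. A ratio above 1 was found at 54 (5.04%) and 70 (6.53%) of the 1072 peaks, against 35.9% and 40.6% of all peaks. The choice itself favours these lower values, so they are descriptions. The 1072 peaks were chosen for calls in the 141 nuclei, of which all but 1 and 5 had the other anchors closed. A co-open share of at least 4% was found in 5 of the 195 nuclei (2.56%, 0.838% to 5.88%) and 2 of the 168 (1.19%, 0.144% to 4.23%), against 129 of the 141 nuclei with the chromosome 18 anchor open. The last value is a description, since the 1072 peaks were chosen on those 141 nuclei. Of all 2737 nuclei, 404 reached this share. The chromosome 18 anchor was also open in 1 of the 195 nuclei and 5 of the 168. Within their own closed nuclei, the observed to expected co-opening of the lists was 2.19 and 2.82.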

How the data were processed

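The authors processed reads with cellranger-atac and merged the data of the 4 time points; per their methods, nuclei outside log UMI limits and clusters of CMs and putative doublets were removed in SnapATAC, and MACS called peaks on sub-clusters. The submitters' processing notes name danRer11 as the build. Tool versions, and which peak calls and coordinate convention the matrix uses, are not given in the sources used here. The deposited values are 0 or 1, although they are described as raw counts. The paper's methods describe binarized counts for genome bins and not for this peak matrix. The values were used as deposited and no count model was applied. Coordinates are as in the matrix, and width is the end minus the start. Depth was the number of open peaks per nucleus.

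All 2737 rows were used as 1 pooled sample, since none maps to a library; 0 columns belonged to other samples. No doublet caller was run, and 6 barcodes occurred in 2 rows each. Rates, ratios, shares and co-opening were computed with Python 3.11.15, numpy 2.4.6 and scipy 1.17.1, and figures with matplotlib 3.10.9. Expected co-opening multiplied, per nucleus, depth by the rate of each peak. The code was tested on simulated data. Thinning drew 500 calls per nucleus without replacement (seed 1).

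Regions were named by rule: the anchor, the 10 co-open peaks of highest ratio, the 10 open in most nuclei with the anchor open (of 3 peaks tied at 49 nuclei for the last place, the first by position was taken), 3 on each side of the limit, those of the 3 densest stretches (most co-open peaks within 50 kb), and listed regions of marker and pathway genes. Roles of genes are textbook background. The peaks, lists and rules were chosen with earlier results of these data known. Alternatives concerned the added CPM, the filters, depth, thinning and leaving out runs. Motif content and distances to genes were planned but not computed, because no genome or gene positions of the build were used. Overlap between the lists of the 3 anchors is not given, because those comparisons share most nuclei.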

Additional observations from a re-analysis of the deposited data

How the results depend on the processing

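The number of co-open peaks, 1072, depended mostly on the limits of the rule. It was 3508 with 1 CPM added and 54 with 30, 532 for peaks open in 50 or more nuclei, 3794 at a ratio of at least 2, 225 at a ratio of at least 4, and 617 after thinning to 500 calls. Of these 617, 285 (46.2%) were among the 1072. After thinning, 355 of the 1072 were still open in 20 or more nuclei, and the 285 are 80.3% of these 355. The 332 peaks that were newly chosen had a median ratio of 2.37 on all calls. In the other 11 alternatives it lay between 915 and 1411. The median ratio of 3.49 follows the limits too: 4.25 with 1 CPM added, 3.21 with 30, 3.57 at 50 or more nuclei, 2.56 and 4.42 at limits of 2 and 4, 3.60 with nuclei weighted equally, 3.57 without the deepest 1% of nuclei, 3.63 without run 3, 3.55 without run 4 and 3.84 after thinning. The median co-open share with the anchor open kept between 7.96% and 8.42% in all 9 alternatives. These kept the 1072 peaks as chosen on all nuclei, so they vary the nuclei or calls and not the list. Thinning also keeps the share of a nucleus on average. With peaks chosen without a run, the median in that run was lower, at 6.53% to 7.08%. Of peaks chosen without a run, totalled over the 4 overlapping lists, 71.1% reached a ratio of 2 and 85.6% a ratio of 1 in that run. Co-opening was 3.06 in run 1 alone and 3.20 to 3.74 in the other 7 alternatives. At the lower quartile as the limit, 83 nuclei in place of 33 had the anchor closed and a high share. Limits of 3% and 5% in place of 4%, chosen after seeing the data, gave 478 and 331 nuclei in place of 404. Beyond the limits themselves, the cause of these differences was not tested. Run 3 holds 61 of the 141 nuclei with the anchor open, and without it 624 of the 997 peaks chosen were among the 1072.

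The median co-open peak rests on 17 nuclei with the anchor open, which limits the precision of single peaks. No paired analysis was possible because no nucleus is tied to a library and nothing was tested. The alternatives planned for motif content and for genes near the peaks were not run, for want of a genome and gene positions of the build.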
